A study of Rattus norvegicus with 12 samples.

Results

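Liver expression on a diet whose protein came from skim milk powder was set against 2 diets built on purified casein. The 4 samples whose titles name the dairy diet were compared with the 8 samples whose titles name the casein or the leucine diet, and the casein and leucine means were given equal weight. These are all 12 samples of the series, measured on Affymetrix Rat Gene 1.0 ST arrays with 1 array per liver sample and 4 samples per diet. The rats were male, of the strain labelled Diet-induced obese Sprague-Dawley, and 20 weeks old at sampling. From 12 weeks of age they had free access for 8 weeks to a high fat, high sucrose diet of 4.6 kcal per gram, of which protein gave 10% of the energy. In the casein diet, the study's control, all of that protein was casein. In the leucine diet casein gave 7.1% and free leucine 2.9% of the energy, and in the dairy diet the protein source was skim milk powder as a whole. All 3 groups thus shared the obese strain and a diet labelled high fat and high sucrose. The series has no lean or chow-fed rats to set beside them. The design ties milk protein to whatever else the powder holds, and leucine supply to a smaller casein share, and neither pair can be told apart.

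Cytosolic ribosomal proteins make up the protein part of the ribosome, and many of their mRNAs start with a stretch of pyrimidines, the 5′ terminal oligopyrimidine tract, through which the kinase mTORC1 controls their translation. The liver breaks down surplus amino acids with a set of aminotransferases, dehydrogenases and hydrolases, and turns the freed nitrogen into urea. The transcription factor ATF4 answers amino acid shortage and other stresses by raising genes for serine synthesis, amino acid import and asparagine synthesis, which it binds at elements related to the letters TGATGNAA.

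Log2 signals of 15310 probe sets with exactly 1 gene symbol, standing for 14506 genes, were compared. Array medians lay between 4.432 and 4.616, and dairy replicate 3 and casein replicate 4 had the narrowest spread over probe sets (SD of 2.075 and 2.138, against 2.236 to 2.333 on the other 10 arrays). Across probe sets the median correlation was 0.9639 between arrays of the same diet and 0.9683 between arrays of unlike diets. The p-values weigh each difference against the spread between these liver samples.

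No gene passed limma's test against both casein-based diets together. Of the 15310 probe sets 0 (0%) had an adjusted p under 0.05, and the smallest adjusted p was 0.0613. At an unadjusted p under 0.05, 760 probe sets (4.96%) had higher and 994 (6.49%) lower signals on dairy. The count differed between settings. It was 740 (383 higher and 357 lower) with weights estimated from array quality, 28 (27 higher and 1 lower) without casein replicate 4, 8 over all probe sets in the file, and 1 with the replicate number as a block. Casein replicate 4 and dairy replicate 3 had the lowest weights, 0.293 and 0.296, and without both of them the count was 0. Dairy replicate 2 had the highest weight, 2.83, beside 0.732 and 1.39 for dairy replicates 1 and 4. Of the 28 probe sets called without casein replicate 4, 19 measured ribosomal proteins, several of them the same gene. Of the 740 called with weights, 90 had a symbol of Rpl or Rps followed by a digit, which can include ribosomal S6 kinases. The share of such symbols among all 15310 probe sets was not counted. Another 3 of the 28 measured LOC366310, and the rest were Pck2, Zfp703, Adm2, Hist1h2bg and Foxi3 with higher and Akr1c3 with lower signals on dairy, of which only Pck2 and LOC366310 are also among the genes named by rule. Against casein alone 13 probe sets (0.0849%) passed, against leucine alone 0 (0%, smallest adjusted p 0.604), and between leucine and casein 0 (0%). The 13 all measured ribosomal proteins, namely Rps15a, Rpl41, Rps9, Rps19 and Rpl39, with higher signals on dairy (limma adjusted p from 0.00307 to 0.0436). At an unadjusted p under 0.05, 1670 probe sets (10.9%) differed between dairy and casein, 1064 (6.95%) between dairy and leucine and 507 (3.31%) between leucine and casein. Since no gene passed against both diets together, "higher" and "lower" describe the values of these 12 arrays throughout. In bulk liver, fewer cells of a type and less RNA per cell cannot be told apart.

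In 174 probe sets (1.14%) the 4 dairy arrays did not overlap the other 8. They lay above in 115 probe sets (0.751%) of 79 genes and below in 59 (0.385%) of 59 genes. Of the 115, 49 probe sets measured 16 ribosomal protein genes. Several of the 49 stand for the same gene (6 of the 7 probe sets of Rpl13), and the family's share of all probe sets was not counted. In 19 of the 115 leucine was also higher than casein at an unadjusted p under 0.05, as in 1.39% of all probe sets (1.92% were lower). Of the 59, none measured a ribosomal protein and 2 differed between leucine and casein at that level. At an unadjusted p under 0.05 against each diet on its own, 210 probe sets (1.37%) were higher and 304 (1.99%) lower on dairy, where both counts use the same dairy arrays.

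The 15 genes named in each direction are those with the smallest p among such probe sets. Of the 15 higher genes 8 code for ribosomal proteins, and Pck2, Reep5, Cdc34, Mogs, LOC366310, Ifi27l2b and Srd5a3 make up the rest. Of the 15, 12 had a leucine mean between the casein and dairy means, the exceptions being Pck2, Mogs and Ifi27l2b. In 6, each a ribosomal protein gene, leucine exceeded casein at an unadjusted p under 0.05. Of the 15 named as lower, 8 had a leucine mean in between, and leucine and casein differed at that level in 2, Gpt and Ctsk. Their differences from both diets ran from 0.558 to 2.06 and from -1.31 to -0.60 on the log2 scale, with limma adjusted p from 0.0613 to 0.162 and from 0.0942 to 0.205.

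**Figure D1:**
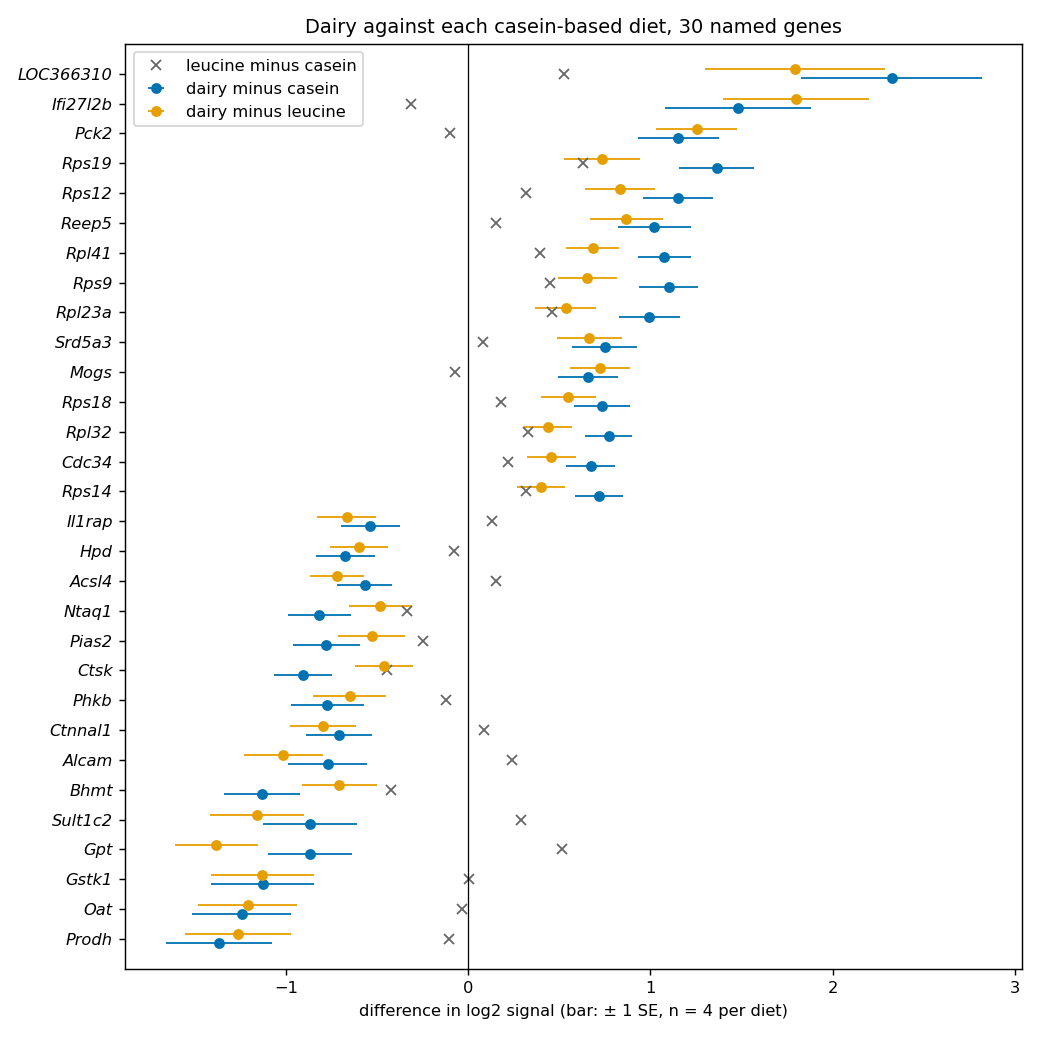
Difference in log2 signal (x axis, bars ± 1 SE, n = 4 per diet) of dairy minus casein (blue) and dairy minus leucine (orange) for the 30 named genes (y axis), with leucine minus casein as crosses. Both dairy differences lie on the same side of 0 in each gene, which follows from how these genes were chosen, and the crosses lie near 0 for Oat, Gstk1 and Pck2 (-0.03, 0.00386 and -0.10) and to the right for Rps19 (0.63) and Rps9 (0.45).

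Rpl41, the smallest protein of the large ribosomal subunit, had dairy signals of 10.95, 10.57, 11.08 and 10.63 in replicates 1 to 4. The leucine arrays stood at 10.15, 10.03, 10.21 and 10.10 and the casein arrays at 9.75, 9.90, 9.73 and 9.54. The 3 diets did not overlap, with leucine in the middle. The log2 difference from both diets was 0.88 ± 0.126 (SE, limma adjusted p = 0.0613). It was 1.08 from casein (limma adjusted p = 0.0149) and 0.68 from leucine (limma adjusted p = 0.604). All 3 probe sets of Rpl41 separated dairy from the other 8 arrays, with differences from 0.49 to 0.88.

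Rps9, of the small subunit, read 10.56, 10.61, 10.67 and 10.42 on dairy, 9.91, 9.53, 10.05 and 10.16 on leucine and 9.25, 9.36, 9.70 and 9.56 on casein. Every dairy array lay above all others, while leucine replicate 2 fell among the casein arrays. Against casein alone the limma adjusted p of Rps9 was 0.027, and against leucine alone 0.604. The difference from both diets was 0.88 ± 0.140 (SE, limma adjusted p = 0.0613), and the 3 probe sets of the gene ran from 0.73 to 0.88. Rps12 and Rps19 followed with 0.99 ± 0.168 and 1.05 ± 0.179 (SE, limma adjusted p = 0.0854 for each).

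Rps15a, another protein of the small subunit, had the smallest p of the comparison although its dairy arrays did overlap leucine. Its leading probe set read 9.27, 8.75, 9.36 and 9.01 on dairy, 8.79, 8.12, 8.47 and 8.88 on leucine and 7.11, 7.33, 7.27 and 7.41 on casein. Dairy replicate 2 lay below 2 leucine arrays, and casein stood apart from both. The difference from both diets was 1.18 ± 0.164 (SE, limma adjusted p = 0.0613), made up of 1.82 from casein and 0.53 from leucine. Against casein alone the limma adjusted p was 0.00307, and against leucine alone 0.657. Leucine exceeded casein by 1.29. Rpl39, of the large subunit, was arranged alike, 1.24 above casein, 0.46 above leucine, with leucine 0.78 above casein. The other ribosomal genes named were Rpl32 (0.60), Rpl23a (0.76), Rpl13 (0.77), Rps14 (0.56) and Rps18 (0.64), given as log2 differences from both diets. In the probe set given for each, the dairy arrays lay above the other 8. Over all probe sets of the gene this held in 5 of 6 for Rpl23a and in 6 of 7 for Rpl13. Since genes of this family have retrocopies of almost the same sequence, it is uncertain which of them a probe set reads.

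**Figure D2:**
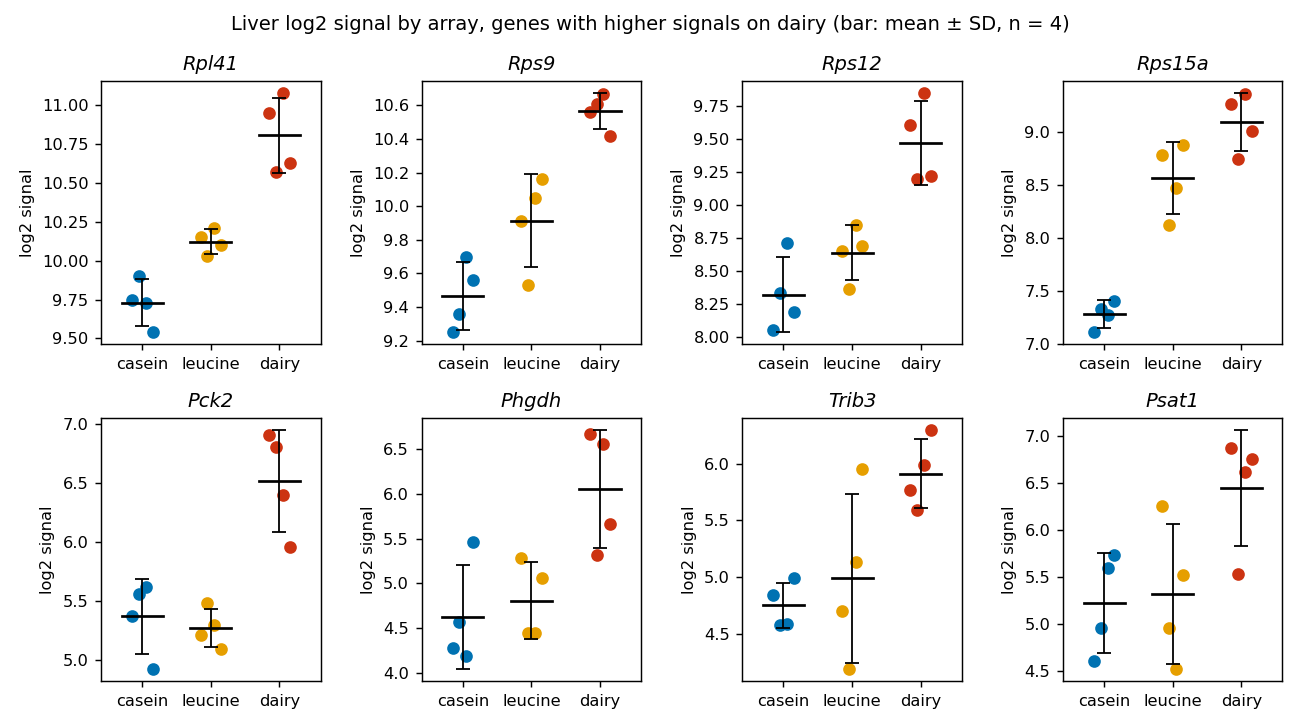
Log2 signal (y axis) on each of the 12 arrays for 4 ribosomal protein genes and 4 genes of the ATF4 list, by diet (x axis), with points for arrays and lines and bars for mean ± SD (n = 4). In the upper row the leucine means lie between the casein and dairy means, while single arrays overlap in some genes. In the lower row the dairy arrays of Pck2 (5.96 to 6.91) lie above all casein and leucine arrays (4.92 to 5.62).

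By list, 16 of 27 measured small-subunit genes had higher signals on dairy than on both diets at an unadjusted p under 0.05, and 0 were lower, where 4.56% of all genes were higher and 6.61% lower. The median difference was 0.351 from both diets, 0.458 from casein and 0.316 from leucine, beside a median of -0.0029 over all genes for the difference from both. The dairy arrays lay above all others in 9 of the 27 genes, beside 0.517% of all genes. The means of 23 genes were higher (49.5% of all genes) and those of 4 lower (50.5%), Rps27 (-0.41), Rps3 (-0.24), Rps3a (-0.10) and Rps6 (-0.07). Taken as the median deviation of its genes from their mean over the 12 arrays, this list stood at 0.364, 0.209, 0.137 and 0.302 on the dairy arrays and between -0.291 and 0.0455 on the other 8. It was the 1 list of 45 in which the dairy arrays did not overlap the rest. Of 42 measured large-subunit genes 14 were higher and 0 lower, with medians of 0.199, 0.266 and 0.112 from both diets, casein and leucine. In that list dairy replicate 3 (-0.114) lay among the casein and leucine arrays (-0.23 to 0.0475), and the median was 0.131 without dairy replicate 4. Without dairy replicate 3 and casein replicate 4 together, 23 large-subunit genes were higher.

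The windows below show the DNA around the annotated start of 7 of these genes, since pyrimidine tracts at the start mark mRNAs under mTORC1 control. Each runs 5′ to 3′ from 15 bases before the start to the 15th transcribed base, from RefSeq on build GRCr8, and capitals mark its longest unbroken run of C and T letters.
Rps9: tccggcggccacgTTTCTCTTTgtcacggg
Rps18: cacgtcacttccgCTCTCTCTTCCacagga
Rps15a: cggcgTTTTCTTTCCacagtcaccatggtg
Rpl39: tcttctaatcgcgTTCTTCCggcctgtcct
Rpl41: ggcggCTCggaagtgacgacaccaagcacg
Rps12: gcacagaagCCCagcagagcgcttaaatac
Rps19: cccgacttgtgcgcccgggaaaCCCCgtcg
These windows lie at chr1:74430423-74430452 (Rps9, minus strand), chr20:4933730-4933759 (Rps18, plus), chr1:181860270-181860299 (Rps15a, minus), chrX:121195882-121195911 (Rpl39, minus), chr7:1563483-1563512 (Rpl41, minus), chr1:23500060-23500089 (Rps12, plus) and chr1:89608673-89608702 (Rps19, plus). The runs of Rps9, Rps18, Rps15a and Rpl39 have 9, 11, 10 and 7 letters and span or touch the start, while those of Rpl41, Rps12 and Rps19 have 3, 3 and 4. Read in the direction of the gene, a run of 7 or more C and T letters stood in 48 of 63 ribosomal protein genes with an entry (76.2%). Among windows of all genes it stood in 5985 of 33465 (17.9%). Runs wholly before the start, as in Rps15a, were counted too, so these are not counts of tracts at the 5′ end of the mRNA. Such a run stood in 22 of 27 ribosomal genes whose higher dairy signal had an unadjusted p under 0.05 (81.5%). Of the other 32 measured, 23 held one (71.9%), so most ribosomal genes carried such letters whether or not they were higher.

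For each list count from here on, the shares over all genes to set beside it are 4.56% higher and 6.61% lower. Most other lists of protein synthesis had medians below 0. Of 37 translation initiation and elongation factors 1 was higher and 6 were lower at an unadjusted p under 0.05 (median -0.107), and the lower ones included the initiation factors Eif3h (-0.55), Eif4a2 (-0.55), Eif4b (-0.33) and Eif4e (-0.68). Of 34 ribosome biogenesis genes 0 were higher and 1 lower (median -0.213). Of 67 mitochondrial ribosomal proteins 4 (5.97%) were higher and 6 (8.96%) lower, near the shares over all genes (median -0.0637). None of 19 cytosolic aminoacyl-tRNA synthetases and none of 26 genes of mTORC1 and amino acid sensing had an unadjusted p under 0.05 (medians -0.0527 and -0.055). In the respiratory chain 7 of 67 genes were higher and 4 lower (median -0.0224). Uqcrq (0.59) and Uqcr11 (0.77) of complex III were among the higher, and of the ATP synthase subunits Atp5po (0.47) was higher and Atp5f1c (-0.38) lower. In the proteasome 3 of 30 genes were higher, led by the catalytic subunit Psmb6 (0.44 ± 0.0987, SE), and 1 was lower (median -0.17). Spliceosome proteins had 2 of 37 genes higher and 0 lower (median 0.041).

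Pck2, the mitochondrial phosphoenolpyruvate carboxykinase and a known ATF4 target, set dairy apart from both diets with no difference between them. Its signals were 6.91, 6.81, 6.40 and 5.96 on dairy, 5.37, 5.56, 5.62 and 4.92 on casein and 5.21, 5.48, 5.29 and 5.09 on leucine. All 4 dairy arrays lay above the other 8. Its mean on both other diets together (5.32) was below the median probe set (5.33), so it met the rule's minimum level through the dairy arrays. The level was 2.30-fold that of both diets together (log2 difference 1.20 ± 0.191 SE, limma adjusted p = 0.0613), with 1.15 from casein, 1.25 from leucine and -0.10 between leucine and casein. The cytosolic enzyme Pck1 differed by -0.06 ± 0.405 (SE).

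Phgdh, the first enzyme of serine synthesis, read 6.67, 5.32, 6.56 and 5.67 on dairy, 4.28, 4.57, 4.19 and 5.46 on casein and 5.28, 4.44, 4.45 and 5.06 on leucine. Dairy replicate 2 lay below casein replicate 4, and the other 3 dairy arrays lay above the rest. The difference from both was 1.34 ± 0.309 (SE, limma adjusted p = 0.186). Psat1, the next enzyme of that route, differed by 1.18 ± 0.344 in 1 probe set and by 0.22 in its other. The pseudokinase Trib3 differed by 1.04 ± 0.265 and the asparagine synthetase Asns by 1.11 ± 0.418 (SE). Ddit4, an inhibitor of mTORC1, stood 1.17 above casein but 0.40 above leucine, with leucine 0.77 above casein. Of the 30 measured genes of the serine synthesis and ATF4 list 6 were higher and 1 was lower at an unadjusted p under 0.05, with a median of 0.248 from both diets, 0.237 from casein and 0.137 from leucine. The lower one was Slc38a2 (-0.78), an amino acid importer that ATF4 is known to raise, and Atf4 itself differed by 0.24 ± 0.303 (SE). The median was 0.123 without casein replicate 1 and 0.132 without dairy replicate 4. Of the unfolded protein response, which shares part of this signalling, 1 of 22 genes was higher and 0 lower (median 0.0731).

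The promoters of Pck2 and Trib3 hold the letters TGATGNAA on the opposite strand, and they are printed because ATF4 is known to bind such letters and, among the genes of the list that hold them, these had an unadjusted p under 0.05. RefSeq sequence on build GRCr8 is given 5′ to 3′ in the direction of the gene, with the match in capitals.
Pck2: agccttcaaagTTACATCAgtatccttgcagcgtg
Trib3: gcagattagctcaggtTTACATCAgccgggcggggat
The first lies at chr15:32997603-32997637 on the plus strand, with its match starting at position -239 from the start of the gene, and the second at chr3:161275534-161275570 on the minus strand, with its match starting at position -21. On either strand of the promoter, from 250 bases before to 50 after the start, TGATGNAA stood in 1332 of 33465 promoters (3.98%). In the serine synthesis and ATF4 list it stood in 7 of 28 genes with an entry, which beside Pck2 and Trib3 were Chac1, Fgf21, Herpud1, Nupr1 and Slc7a1. Those 5 differed by 0.26 ± 0.366, 0.61 ± 0.673, -0.30 ± 0.283, -0.02 ± 0.348 and 0.58 ± 0.573 (SE), and none had an unadjusted p under 0.05. The windows of Phgdh, Psat1, Asns and Ddit4 did not hold them.

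Several enzymes of amino acid breakdown had lower signals on dairy than on either casein-based diet. Gpt, the alanine aminotransferase, read 7.95, 7.36, 7.33 and 7.28 on dairy, 8.61, 8.01, 8.12 and 8.63 on casein and 9.05, 9.23, 8.37 and 8.79 on leucine. The dairy arrays lay below all others, with replicate 1 nearest to them. The level was 2.18-fold lower than on both diets together (log2 difference -1.12 ± 0.197 SE, limma adjusted p = 0.0942). It differed by -0.87 from casein and by -1.38 from leucine, which was itself 0.52 above casein.

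Oat, which passes the amino group of ornithine on, read 6.75, 6.83, 7.30 and 7.75 on dairy, 8.41, 8.88, 7.95 and 8.37 on casein and 8.65, 8.62, 7.78 and 8.43 on leucine. Its difference was -1.24 from casein and -1.21 from leucine, with -0.03 between these (-1.23 ± 0.235 SE from both, limma adjusted p = 0.124). Prodh, the first enzyme of proline breakdown, stood at 9.05, 8.02, 8.86 and 8.13 on dairy, and between 9.30 and 10.40 on the other 8 arrays. It differed by -1.36 from casein and -1.26 from leucine (-1.31 ± 0.252 SE from both, limma adjusted p = 0.124). Hpd, of tyrosine breakdown, differed by -0.67 and -0.60, and its dairy arrays (11.50 to 12.06) lay below the rest (12.31 to 12.73). In each of these 3 genes dairy did not overlap the other arrays, and leucine and casein differed by -0.03, -0.10 and -0.08.

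**Figure D3:**
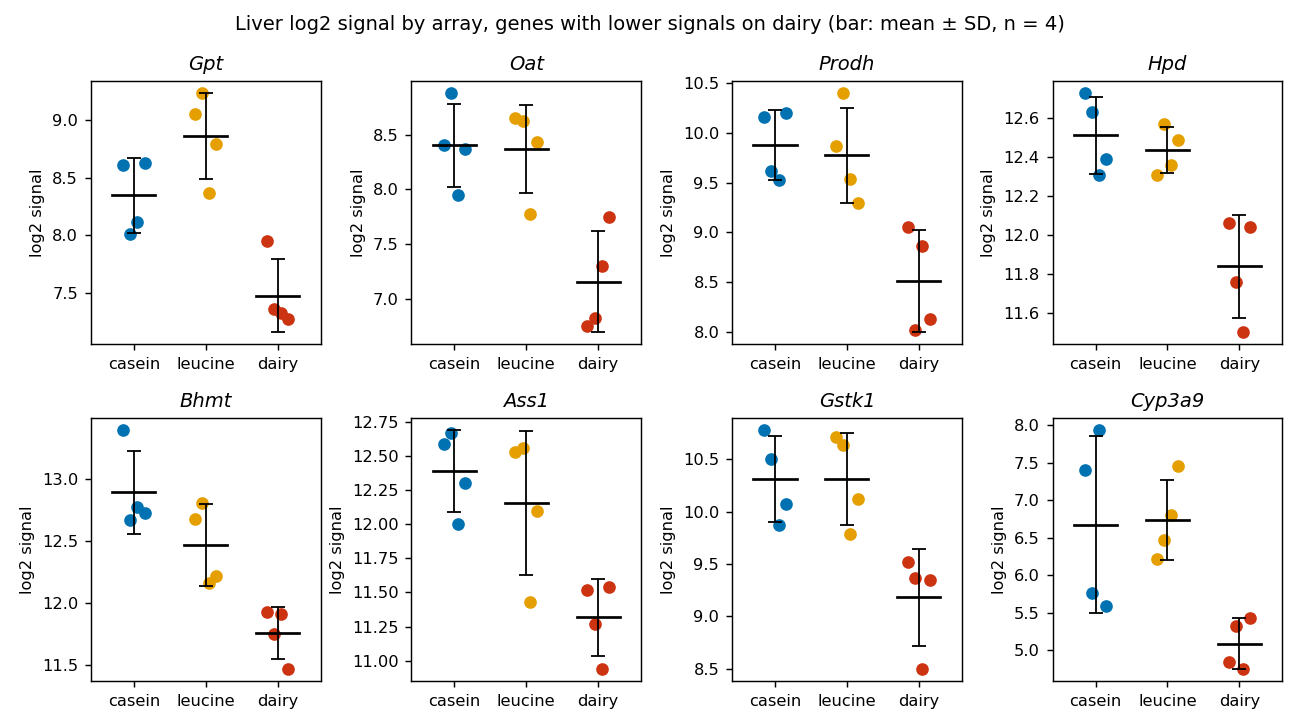
Log2 signal (y axis) on each of the 12 arrays for 8 genes with lower signals on dairy, by diet (x axis), with points for arrays and lines and bars for mean ± SD (n = 4). The dairy arrays lie below the other 8 in Gpt, Oat, Prodh, Hpd, Bhmt, Gstk1 and Cyp3a9, and in Ass1 leucine replicate 3 (11.43) falls among them.

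In the urea cycle and ammonia list all 10 measured genes had lower means on dairy, and 8 were lower at an unadjusted p under 0.05, 80% beside 6.61% of all genes. The median was -0.745 from both diets, -0.662 from casein and -0.714 from leucine. Ass1, which joins citrulline and aspartate, differed by -0.95 ± 0.219 (SE), Otc by -0.87, Asl by -0.71, the arginase Arg1 by -0.57 and the entry enzyme Cps1 by -0.51. The liver glutaminase Gls2 (-0.95) and the ornithine carrier Slc25a15 (-0.79) were also lower, while Nags (-0.42) and Glud1 (-0.22) were not at that level. As a median deviation the list stood at -0.174, -0.763, -0.451 and -0.218 on dairy, and leucine replicate 3 (-0.48) lay among these while the other 7 arrays lay at 0.0201 to 0.592.

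In the list of other amino acid breakdown 13 of 30 genes were lower and 0 higher, with medians of -0.392, -0.426 and -0.476 from both diets, casein and leucine. In 3 of the 30, Gpt, Prodh and Hpd, the dairy arrays lay below all others, beside 0.4% of all genes. The serine dehydratase Sds had the largest difference in it, -2.37 ± 0.733 (SE), with dairy arrays at 6.78, 4.77, 4.88 and 5.85. Leucine replicate 3 (5.08) fell among them, and the other 7 arrays lay between 6.86 and 9.79. Tryptophan enzymes followed the same way, with Aadat at -0.97, Kmo at -0.98, Kynu at -0.90 and Acmsd at -1.40, and so did the lysine enzyme Aass (-1.15), the aspartate aminotransferase Got1 (-1.30) and the tyrosine enzymes Hgd (-0.72) and Fah (-0.41). The tyrosine aminotransferase Tat differed by -0.26 ± 0.418 (SE). Dairy replicate 1 stood nearest to the other diets, at a list median of 0.0826 beside -0.597, -0.388 and -0.466 for dairy replicates 2 to 4, and the list's median difference was -0.602 without it.

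In the methionine and homocysteine list 8 of 19 genes were lower and 0 higher, with medians of -0.546, -0.531 and -0.44 from both diets, casein and leucine. Bhmt, which remethylates homocysteine with betaine, read 11.93, 11.75, 11.91 and 11.47 on dairy, 12.68, 12.81, 12.16 and 12.22 on leucine and 13.40, 12.67, 12.78 and 12.73 on casein. It was graded, with leucine -0.42 from casein and dairy -0.71 from leucine (-0.92 ± 0.179 SE from both, limma adjusted p = 0.129). Gnmt (-0.79), Cdo1 (-0.72), Cth (-0.74), Cbs (-0.70), Ahcy (-0.55) and Mat1a (-0.35) were lower as well. The median was -0.322 without dairy replicate 3, and 5 genes were lower without dairy replicate 2 or without dairy replicate 4.

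Branched-chain amino acid breakdown, the route that uses leucine, had 12 of 24 genes lower and 1 higher, with medians of -0.483, -0.516 and -0.383 from both diets, casein and leucine. Mccc2, of the leucine branch, stood at 7.69, 7.13, 7.36 and 7.33 on dairy and between 7.71 and 8.50 on the others, a difference of -0.69 ± 0.181 (SE). Pcca (-0.62), Aldh6a1 (-0.63), Acadsb (-0.79), Dbt (-0.65) and Ivd (-0.46) were lower too. The higher one was the mitochondrial aminotransferase Bcat2, the first step of the route and low in hepatocytes, at 0.24 ± 0.105 (SE) and with its dairy arrays above the rest. Between the leucine and casein diets, which differed in leucine supply, the list's median was -0.111. Dairy replicate 1 (0.0394) again stood nearer to the other diets than dairy replicates 2 to 4 (-0.449, -0.467 and -0.354).

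Amino acid carriers of liver had 2 of 24 genes higher and 5 lower, with a median of -0.0209. Slc16a10, which carries aromatic amino acids, had the largest difference, -1.66 ± 0.364 (SE, limma adjusted p = 0.163). It read 6.59, 7.53, 6.68 and 8.58 on dairy and 8.54 to 9.82 on the other 8 arrays, so that dairy replicate 4 alone overlapped them. Slc38a2 differed by -0.44 from casein and by -1.13 from leucine, and Slc38a4 by -0.50 and Slc38a1 by 0.35 from both.

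**Figure D4:**
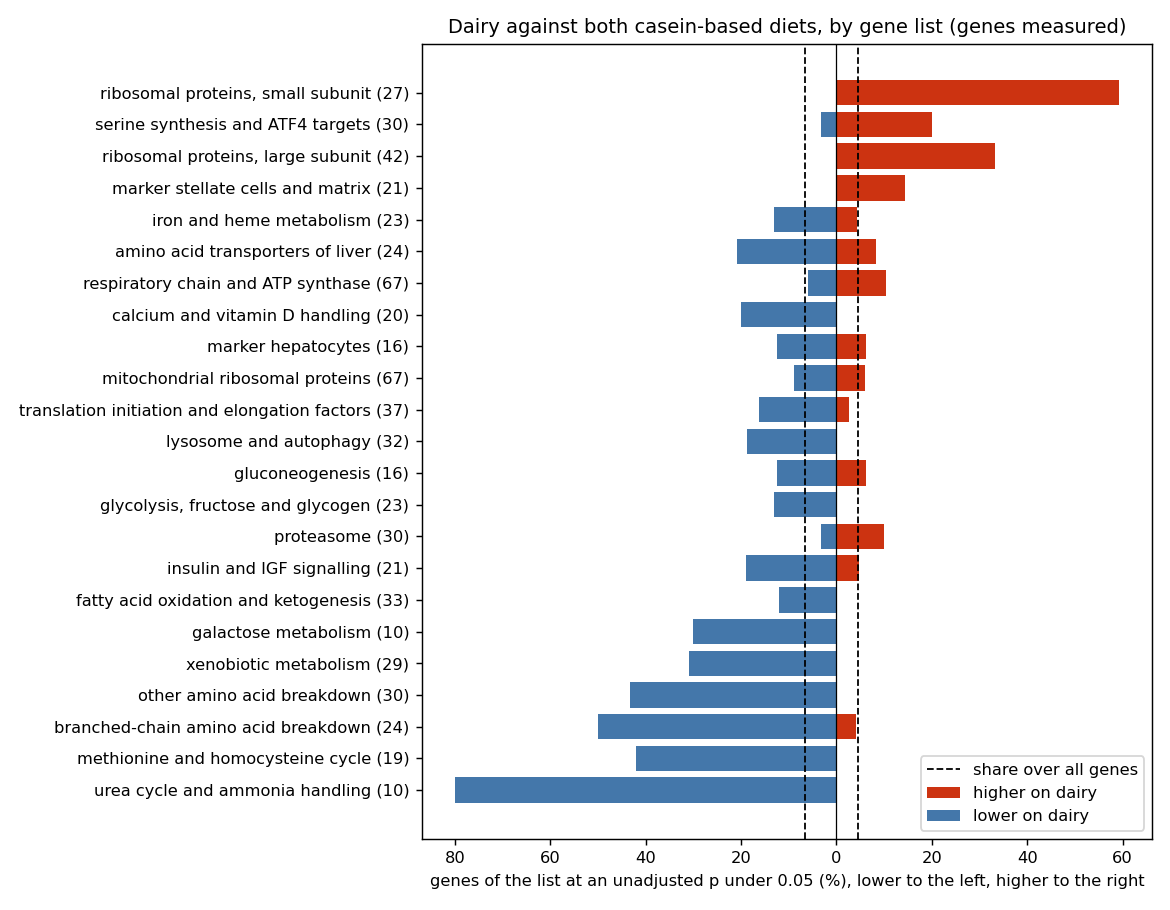
Share of the measured genes of each list (number in brackets, y axis) at an unadjusted p under 0.05 for dairy against both casein-based diets, in percent (x axis), higher to the right and lower to the left, for lists with at least 3 such genes and 10 measured genes. Dashed lines mark the shares over all genes, 4.56% higher and 6.61% lower, and the small-subunit ribosomal proteins (59.3% higher) and the urea cycle (80% lower) lie furthest from them.

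Genes of xenobiotic metabolism were lower in 9 of 29 and higher in 0, with medians of -0.353, -0.344 and -0.512 from both diets, casein and leucine. Cyp3a9, a cytochrome P450, read 4.84, 5.32, 4.75 and 5.43 on dairy and 5.59 to 7.94 elsewhere, without overlap (-1.61 ± 0.412 SE, limma adjusted p = 0.227). Cyp2c12, a P450 known for its expression in female rats, differed by -2.10 ± 0.574, the glucuronosyltransferase Ugt2b1 by -1.76 ± 0.40 and Cyp2e1 by -0.84 ± 0.231 (SE). Dairy replicate 1 stood at 8.37 for Ugt2b1 and the other dairy arrays at 6.43 to 6.60. Gstk1, a glutathione transferase of mitochondria and peroxisomes, was outside the list and read 9.52, 9.37, 8.50 and 9.35 on dairy and 9.79 to 10.78 elsewhere. It differed by -1.13 from casein and -1.13 from leucine (-1.13 ± 0.245 SE from both, limma adjusted p = 0.161), and leucine and casein differed by 0.00386. Sult1c2, a sulfotransferase, differed by -1.01 ± 0.225 (SE). NRF2 targets and glutathione genes had 1 of 23 higher and 0 lower (median -0.0562).

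Among the other genes named as higher, Mogs and Srd5a3 both serve N-glycosylation in the endoplasmic reticulum, Mogs by trimming the first glucose and Srd5a3 by making dolichol. Mogs read 7.67, 7.72, 7.66 and 7.81 on dairy and 6.73 to 7.41 elsewhere (0.69 ± 0.143 SE), and Srd5a3 read 5.97, 5.93, 5.85 and 6.09 against 4.89 to 5.57 (0.71 ± 0.155 SE). Leucine and casein differed by -0.07 in Mogs and by 0.08 in Srd5a3. Srd5a3 too met the minimum level through dairy, with a mean of 5.25 on both other diets together. Reep5, which shapes the endoplasmic reticulum, differed by 0.95 ± 0.174, and the ubiquitin-conjugating enzyme Cdc34 by 0.57 ± 0.117 (SE). The locus LOC366310 differed by 2.06 ± 0.428, with casein replicate 4 at 8.21 and the other casein arrays at 6.23 to 6.54. Ifi27l2b, a relative of an interferon-induced gene, read 8.83, 9.63, 8.23 and 8.61 on dairy, 7.60, 8.21, 6.57 and 6.99 on casein and 7.34, 7.51, 6.13 and 7.13 on leucine (1.64 ± 0.346 SE, limma adjusted p = 0.143). In each diet replicate 2 was highest and replicate 3 lowest, and with the replicate number as a block the gene passed (limma adjusted p = 0.0137).

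Among those named as lower, Ctsk, a lysosomal protease, was graded (-0.91 from casein, -0.46 from leucine and -0.44 between leucine and casein). Acsl4, which activates arachidonate, differed by -0.64 ± 0.129, the adhesion protein Alcam by -0.89 ± 0.189 and the catenin relative Ctnnal1 by -0.75 ± 0.157 (SE), and in these 3 the leucine means lay above the casein means. The receptor chain Il1rap (-0.60), the SUMO ligase Pias2 (-0.65), Ntaq1 (-0.65) and the phosphorylase kinase subunit Phkb (-0.71) completed the list, all with dairy arrays below the other 8. Lysosome and autophagy genes had 6 of 32 lower and 0 higher (median -0.13), among them the lipase Lipa (-0.97) and Lamp2 (-0.65).

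Insulin and IGF signalling had 1 of 21 genes higher and 4 lower, with medians of -0.205, -0.122 and -0.302 from both diets, casein and leucine. Igf1, the growth factor that liver secretes, read 11.63, 11.27, 11.12 and 11.47 on dairy and 11.55 to 12.16 elsewhere, so only dairy replicate 1 overlapped. It differed by -0.49 from casein and -0.50 from leucine (-0.50 ± 0.154 SE, limma adjusted p = 0.323). The kinases Gsk3b (-0.71) and Pdpk1 (-0.43) and the insulin receptor Insr (-0.52 in 1 probe set, -0.12 in the other) were lower, and the receptor adaptor Grb10 (0.40) higher. Ppargc1a, a coactivator of gluconeogenesis and fatty acid oxidation, differed by -0.93 ± 0.285 (SE).

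In glucose and lipid metabolism few genes had an unadjusted p under 0.05. Gluconeogenesis had 1 of 16 genes higher, which was Pck2, and 2 lower (median -0.132), and glycolysis, fructose and glycogen 0 of 23 higher and 3 lower (-0.168). Fatty acid oxidation and ketogenesis had 0 of 33 higher and 4 lower (-0.281), among them Ehhadh (-0.87), Acadm (-0.64), Decr1 (-0.53) and Etfa (-0.54). Fatty acid and triglyceride synthesis had 0 of 24 genes either way (median -0.311, made up of -0.522 from casein and -0.101 from leucine), cholesterol synthesis 0 of 20 (-0.213), and bile acids 0 of 20 higher and 2 lower (-0.365). Single genes here varied widely within a diet. Fasn, the fatty acid synthase, ran from 7.92 to 10.99 on dairy, from 8.36 to 11.42 on casein and from 7.39 to 10.23 on leucine, and differed by -0.05 ± 0.721 (SE). Differences of Scd (-0.03 ± 0.863), G6pc1 (0.07 ± 1.25), Cpt1a (-0.44 ± 0.353), Acaca (-0.26 ± 0.368), Cyp7a1 (-1.35 ± 1.00), Igfbp1 (-0.42 ± 0.83) and Fgf21 (0.61 ± 0.673) all had an unadjusted p above 0.05. Those of Fasn, Scd, Pck1, G6pc1, Igfbp1 and Fgf21 turned sign under at least 1 alternative.

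Lists of galactose metabolism, of calcium and vitamin D handling and of iron and heme metabolism were examined too. Galactose, which lactose releases together with glucose, is used through the Leloir pathway. The galactose list had 0 of 10 genes higher and 3 lower, with medians of -0.298, -0.358 and -0.226 from both diets, casein and leucine. Galt, the uridylyltransferase of the pathway, differed by 0.15 ± 0.235 and turned sign with array weights, the kinase Galk2 by -0.63 ± 0.184, the galactosidase Gla by -0.48 ± 0.193 and Ugp2 by -0.71 ± 0.324 (SE). The median was -0.109 without dairy replicate 3, and 1 gene was lower without casein replicate 1, dairy replicate 3 or leucine replicate 2. Calcium and vitamin D handling had 0 of 20 genes higher and 4 lower (median -0.0277), among them the calcium pump Atp2b1 (-0.50) and the channel Itpr2 (-0.61). Iron and heme metabolism had 1 of 23 higher and 3 lower (-0.00227). There the transferrin receptor Tfrc differed by -0.51 from casein and -1.24 from leucine.

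The samples carried liver markers in every group. Of 16 hepatocyte markers 1 was higher and 2 were lower at an unadjusted p under 0.05 (median -0.0414), and albumin, Alb, had mean signals of 13.7 on dairy, 13.8 on casein and 13.7 on leucine. As a median deviation hepatocyte markers lay between -0.153 and 0.148 on dairy and between -0.0832 and 0.202 elsewhere. At an unadjusted p under 0.05, 1 of 15 neutrophil markers, Ncf1 (0.98), was higher (6.67%, beside 4.56% of all genes). Neutrophil markers had higher means on dairy in 14 of the 15 genes, beside 49.5% of all genes (median 0.322). Their median deviation was -0.439, 0.745, -0.299 and 1.18 on dairy, -1.01 to 0.706 on leucine and -0.743 to 0.478 on casein, and the median difference was 0.12 without dairy replicate 4, 0.176 without dairy replicate 2 or without leucine replicate 1 and 0.54 without dairy replicate 1. The neutrophil genes Elane, Mpo and Camp had means over the 12 arrays of 3.71, 3.86 and 3.66, below the median probe set (5.33). Stellate cell and matrix markers had 3 of 21 higher and 0 lower (median 0.165), among them Pdgfrb (0.38), Col4a1 (0.54) and Col1a1 (0.46). Kupffer cell, endothelial and cholangiocyte markers had 0 higher and 1 lower each (medians 0.0381, -0.0889 and -0.0329), and lymphocyte, adipocyte and erythroid markers 0 either way (0.0747, 0.112 and 0.00503). The part of cell makeup in the differences above was not tested.

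**Figure D5:**
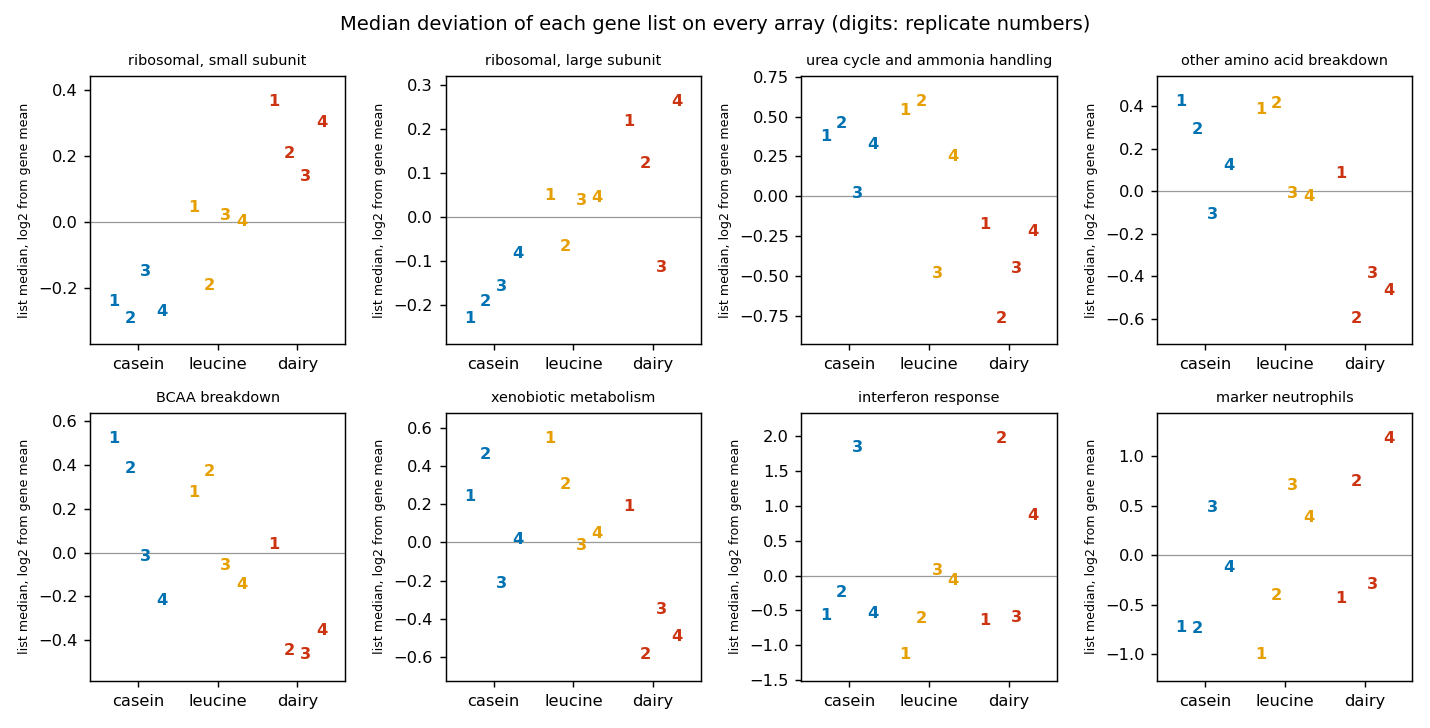
Median deviation of the genes of 8 lists from their mean over the 12 arrays (y axis, log2), by diet (x axis), with each array drawn as its replicate number. Dairy lies above the other diets in the small-subunit ribosomal proteins (0.137 to 0.364 against -0.291 to 0.0455), and in the interferon response 3 arrays, casein replicate 3 (1.84) and dairy replicates 2 (1.97) and 4 (0.869), lie above the rest.

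Genes of the interferon response had a median of 0.53 from both diets, but the 4 dairy arrays stood at -0.647, 1.97, -0.608 and 0.869, and casein replicate 3 at 1.84. The median was -0.101 without dairy replicate 2 and 1.05 without dairy replicate 1. It was also smaller without casein replicate 1 (0.338), dairy replicate 4 (0.215) or leucine replicate 1 (0.318) and larger without casein replicate 3 (0.845), without dairy replicate 3 (0.841) or with array weights (1.53). In this list 1 of 29 genes, Ifi27 (0.49), was higher at an unadjusted p under 0.05. Inducible inflammatory genes had 0 of 28 either way (median 0.0674) and acute phase proteins 0 of 20 (0.0547). The circadian clock had 0 of 15 (-0.0447), the cell cycle 0 of 26 higher and 1 lower (0.0764) and histone genes 1 of 11 higher and 0 lower (-0.0616).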

How the data were processed

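Total RNA of 12 liver samples was hybridised, 1 array each. The deposited values are log2 signals per probe set and array. Per the submitters' processing notes the tool was Affymetrix Expression Console, and its version, summarisation method and probe annotation build were not given in the sources used here. Log2 differences of dim probe sets understate a change. Precision is limited by how few arrays there are.

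Samples were grouped by the diet in their labels. Of 29214 probe sets, 15310 had exactly 1 gene symbol in the platform annotation, 323 had several and 13581 were unnamed here. Entrez IDs of 15279 were found in RefSeq. limma 3.58.1 in R 4.3.3 (lmFit on 3 diet means over 12 arrays, contrast dairy minus the mean of the casein and leucine means, eBayes, 9 residual and 3.448 prior degrees of freedom) gave two-sided p-values, with Benjamini-Hochberg adjustment across all 15310 and a threshold of 0.05. The same fit gave each diet against each. The fit was tested on simulated data.

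The members, 45 gene lists and 30 key genes were chosen with earlier results of these data known. Lists are described with 1 probe set per gene (highest mean) and were not tested as sets. Named genes were, as none passed, the 15 each way with the smallest p among probe sets that did not overlap between dairy and the other arrays and had a mean over the 12 arrays above the median probe set (5.33), which Pck2 and Srd5a3 met only through their dairy arrays and Ctsk only through the other arrays. Up to 4 genes with the smallest p of each list with at least 3 genes or 20% of its genes at an unadjusted p under 0.05, and the key genes, were added. Further genes of the lists were named after their values were seen. Promoters are RefSeq's on GRCr8, with an entry for 99 of the 120 genes named by rule.

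Replicate numbers were not used as pairs. The alternatives were quantile normalization, centring, all probe sets, leaving out the dimmest 25%, eBayes with trend and robust, array weights, casein and leucine as 1 group, the replicate block, leaving out each array, and leaving out the 2 arrays of narrowest spread. Counts at an unadjusted p under 0.05 under these were added after the data were seen.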

Additional observations from a re-analysis of the deposited data

Results flagged for a closer look

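Of 360 groups of 4 arrays (120 named genes in 3 diets), 13 held an array whose gap to the nearest of the others exceeded Dixon's critical share of the group's range, where about 1 in 20 groups, 18, would do so by chance. On dairy these were replicate 1 for Gpt (7.95, others 7.28 to 7.36), Ctsk (4.70, others 4.94 to 4.97), Rpl39 (9.56, others 8.70 to 8.84) and Ugt2b1 (8.37, others 6.43 to 6.60), and replicate 3 for Gstk1 (8.50, others 9.35 to 9.52). On casein they were replicate 1 for Bhmt (13.40) and Mrpl42 (9.69), replicate 3 for Galk2 (7.41) and Otc (8.28), and replicate 4 for LOC366310 (8.21) and Pcca (7.29). On leucine they were replicate 2 for Reep5 (7.14, others 7.62 to 7.66) and replicate 1 for Ugt2b1 (8.93, others 8.36 to 8.45). The Rpl39 values flagged here are of another probe set than the one whose differences are given in the results. That one read 9.39, 8.64, 8.47 and 8.85 on dairy and was not checked in this way.

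Probe sets without a gene name were left out of the comparison, and 5 of them passed limma's test when all 29214 probe sets were fitted (adjusted p = 0.0463 for each). Probe set 10701483 differed by -1.23 (dairy 3.822 to 4.791, the other 8 arrays 5.183 to 5.729), 10799987 by 1.10 (7.927 to 8.258 against 6.231 to 7.666) and 10866957 by 2.52 (9.389 to 11.5 against 7.698 to 8.927). Probe sets 10894268 and 10918270 held the same values and differed by 2.13 (5.386 to 6.263 against 2.851 to 5.151). In all 5 the dairy arrays did not overlap the rest.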

How the results depend on the processing

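With 4 arrays per diet the number of arrays limits the precision. The count of 0 probe sets called against both diets together stayed 0 with quantile normalization, centring, without the dimmest probe sets, with trend and robust, with casein and leucine as 1 group of 8 and without the 2 arrays of narrowest spread. It was 8 over all probe sets (all 8 also under 0.05 against each diet), 740 with array weights (655 so), and 0 to 28 (0 to 27 so) with single arrays left out, where only casein replicate 4 gave calls. With the replicate block, 1 gene, Ifi27l2b, was called (adjusted p = 0.0137, 1 so), and the pairing changed no other call. Deviations of same-numbered arrays correlated over 0.1 in 7 of 12 pairs (r between -0.505 and 0.59). These were all 4 pairs of casein with leucine (0.208 to 0.532) and 3 pairs with dairy, so the numbers were not treated as pairs, and what they mark is not known.

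The 1754 probe sets at an unadjusted p under 0.05 became 3209 over all probe sets, 3824 with array weights, and 1143 to 2878 with 1 array left out (dairy replicate 3 and casein replicate 4, in that order). The 174 probe sets without overlap became 336 over all probe sets, 586 without the 2 arrays of narrowest spread, and 184 to 478 with single arrays left out. Leaving out an array can only add probe sets to this count, since fewer values have to stay apart, so these rises were fixed in advance. The small-subunit ribosomal median was 0.452 after quantile normalization, those of other amino acid breakdown and xenobiotic metabolism were -0.689 and -0.674 with array weights, and that of the methionine list ran from -0.584 to -0.322 with arrays left out. Without the 2 arrays of narrowest spread 23 large-subunit genes were higher. Methionine genes that were lower numbered 5 to 10 and galactose genes 1 to 4 with arrays left out.

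Signs turned for Pck1 (0.0429), Fasn (0.0376) and Scd (0.0797) after quantile normalization, for Fgf21 (-0.463), Galt (-0.0766), Igfbp1 (0.725) and G6pc1 (-0.765) with array weights, and for Igfbp1 (0.0288), Pck1 (0.000221) and G6pc1 (-0.116) without the 2 arrays of narrowest spread. With single arrays left out they ran from -0.615 to 0.406 for Fasn, -0.0488 to 1.21 for Fgf21, -0.558 to 0.814 for G6pc1, -0.0398 to 0.259 for Galt, -1.12 to 0.273 for Igfbp1, -0.30 to 0.127 for Pck1 and -0.424 to 0.569 for Scd. None of the other genes named by rule turned sign under these alternatives. The further genes of the lists that the text names were not followed through them. The cause of these changes was not tested.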
